A study of Arabidopsis thaliana with 2 samples.

Results

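The precursors mir158a and mir161 are 2 of the 151 microRNA precursors with tags in a pair of SPARE libraries of Arabidopsis thaliana. Their members were all tags that the deposited files list under either name, counted by read abundance: 419 reads of mir158a and 715 reads of mir161 over both libraries. SPARE ligates an adaptor to free 5′ ends of RNA, extends primers specific to each precursor and sequences the products, so each tag starts where an RNA that still holds the primer site was cut or broken. One library came from the fiery mutant and 1 from wild-type plants of the ecotype Col-0. Each was made from a mixture of 2-week-old seedlings with leaves and inflorescences of plants 5 weeks old, grown at 23 °C with 16 h of light. The labels name the mutant only as fiery and give it no ecotype. FIERY1 of Arabidopsis is a nucleotide phosphatase whose loss is known to inhibit 5′-to-3′ exoribonucleases, but the labels do not say which fiery gene was mutated. Neither that gene nor a tissue marker was amplified, so neither label could be checked in the data.

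The fiery library held 33192 reads and the wild-type library 12129. Tags longer than 35 nt made up 77.6% of fiery and 34.4% of wild type. With 1 library per group there was no replicate, no test between genotypes and no p-value. Intervals are exact 95% intervals and cover counting error only, since reads amplified in 18 PCR cycles without molecular identifiers are not independent molecules. RNA level, cutting, decay of the fragments, amplification and the unlike tag lengths cannot be told apart in these counts.

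Plant microRNA precursors fold into stems that DICER-LIKE 1 cuts in the nucleus, once near the base of the stem and once near the loop, to release a duplex with short 3′ overhangs. On the 3′ arm, an end just past the duplex is the base-side cut, and an end on the strand's own first base is the loop-side cut. An RNA that starts at the loop-side cut still carries the base of the stem. Pentatricopeptide repeat (PPR) proteins form a large plant family that binds RNA in mitochondria and chloroplasts, and several Arabidopsis microRNAs, miR161 among them, are known to direct cleavage of PPR mRNAs.

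The 2 precursors differ in layout, and their sequences are shown because every cut below is placed on them. Positions count from nucleotide (nt) 1 at the annotated 5′ end of the precursor, and capitals mark the mature RNAs. MIR161 (AT1G48267) is a non-coding gene on the plus strand at chr1:17825685-17825857 of TAIR10.1, with a predicted folding energy of -63 kcal/mol over its 173 nt. In its sequence the capitals run across both overlapping mature RNAs, from nt 38 to nt 67.
mir161: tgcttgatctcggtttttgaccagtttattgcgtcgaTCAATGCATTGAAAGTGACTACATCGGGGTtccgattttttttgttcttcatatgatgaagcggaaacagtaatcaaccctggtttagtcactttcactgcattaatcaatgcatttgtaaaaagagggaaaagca
MIR158a (AT3G10745) lies on the minus strand at chr3:3366331-3366430, with a predicted folding energy of -39.7 kcal/mol over 100 nt. Its capitals mark miR158a-5p at nt 20 to 40 and miR158a-3p at nt 63 to 82.
mir158a: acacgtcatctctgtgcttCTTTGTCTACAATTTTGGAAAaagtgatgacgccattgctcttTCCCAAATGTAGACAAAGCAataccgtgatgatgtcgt

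The mature RNAs are given as DNA letters of the genome, with the seed (bases 2 to 8) in capitals. The 5′-arm RNAs of mir161 start 9 nt apart and share 12 nt, so their seeds differ. miR158a-3p and miR158b, the product of the related precursor mir158b, have the same seed and differ by T1C, counted from the 5′ end with the base of miR158a-3p first.
miR161.2 (nt 38 to 58): tCAATGCAttgaaagtgacta
miR161.1 (nt 47 to 67): tGAAAGTGactacatcggggt
miR158a-5p (nt 20 to 40): cTTTGTCTacaattttggaaa
miR158a-3p (nt 63 to 82): tCCCAAATgtagacaaagca
miR158b (nt 56 to 75 of mir158b): cCCCAAATgtagacaaagca

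No mature RNA is annotated on the 3′ arm of mir161, so the strands opposite its mature RNAs were taken from the predicted fold with 2-nt 3′ overhangs. They are shown because the cuts counted on mir161 are their ends. The strand opposite miR161.1 spans nt 116 to 136 and that opposite miR161.2 spans nt 125 to 145, which puts the base-side cuts at nt 137 and nt 146, also 9 nt apart. The same procedure applied to miR158a-5p gave nt 63 to 82, the annotated place of miR158a-3p.
strand opposite miR161.1: cctggtttagtcactttcact
strand opposite miR161.2: gtcactttcactgcattaatc

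In both libraries, mir161 reads started almost wholly on the 3′ arm, at the base-side cuts of both overlapping mature RNAs. In fiery, 607 of 663 reads, or 91.6%, lay within 1 nt of one of the cuts of miR161.1 or miR161.2. In wild type, 44 of 52 reads, or 84.6%, did. The libraries differed in how the reads were split between the base-side cuts and in the exact nucleotide at the cut of miR161.1.

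The base-side cut of miR161.1 led in fiery. It held 365 reads at nt 137 and 150 reads at nt 138, together 515 reads or 77.7% of mir161. The base-side cut of miR161.2 held 81 reads at nt 146 and 2 at nt 147, together 83 reads or 12.5%. Wild type had 24 reads at the cut of miR161.1, which were 46.2% of its mir161 reads, and 20 reads at the cut of miR161.2, which were 38.5%. Among the reads at both base-side cuts, that of miR161.2 thus took 13.9% (11.2 to 16.9) in the mutant. In wild type it took 45.5% (30.4 to 61.2). These intervals did not overlap, but they cover counting error only and were no test between genotypes. In both libraries each mir161 end was 1 distinct tag, with 22 tags at 22 ends in fiery and 4 at 4 in wild type. Counting each tag once therefore only counts occupied positions. The 50.0% it gave in both libraries does not bear on the split of reads. Read alone, the cut of miR161.1 led clearly in fiery, whereas in wild type the counts at both cuts were within counting error of each other.

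**Figure D1:**
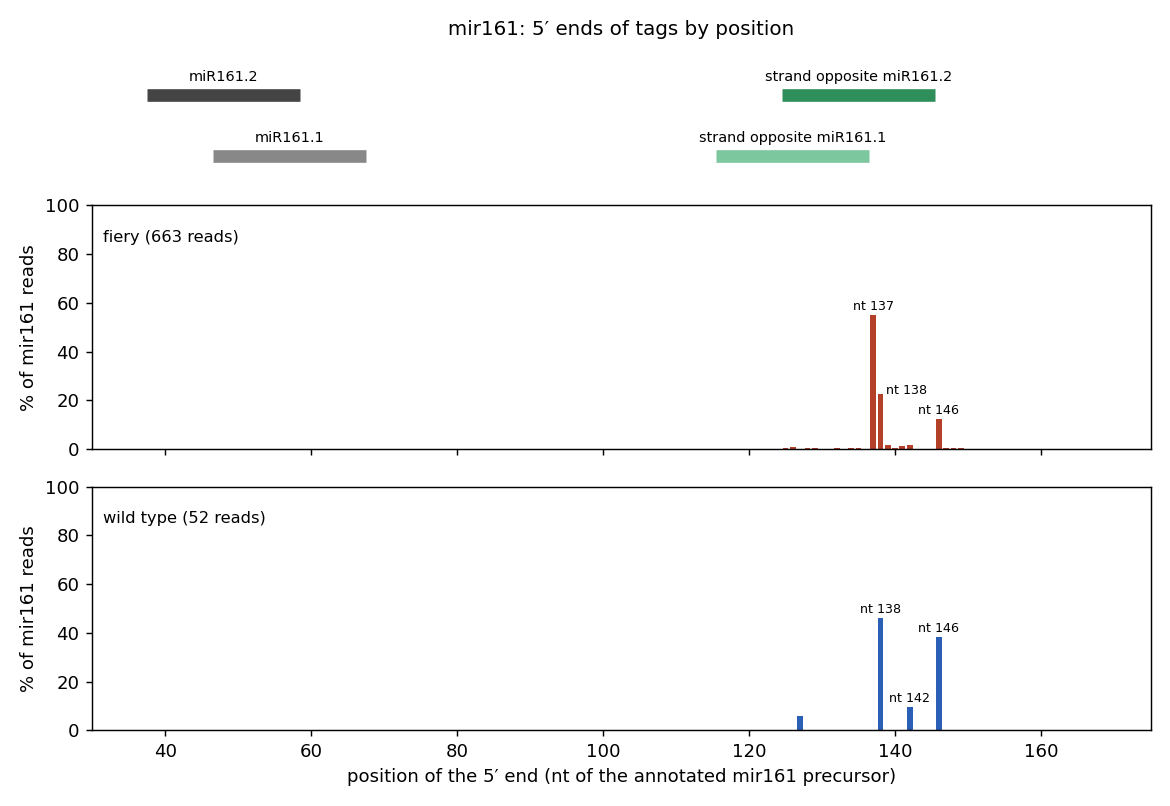
Share of mir161 reads (%, linear axis from 0) by the position of the 5′ end in nt of the precursor, in fiery (663 reads) and wild type (52 reads), with the mature RNAs and the strands opposite them drawn above. In fiery the tallest bar is at nt 137, and in wild type the bars at nt 138 and nt 146 are of similar height and nt 137 is empty.

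At the cut of miR161.1 the exact nucleotide also differed. Of the reads at nt 137 and nt 138, 70.9% (66.7 to 74.8) were at nt 137 in fiery. In wild type 0 of 24 were, and all 24 reads were at nt 138. Of all wild-type mir161 reads, 0 of 52 were at nt 137. That allows a share of up to 5.77% (3 counts of 52), or 6.85% by the exact interval. Fiery had 55.1% (51.2 to 58.9) there. The leading end was therefore nt 137 in fiery (chr1 position 17825821) and nt 138 in wild type (17825822). The leading tags are printed with the first base in capitals, because that base is the measured cut.
fiery, nt 137, 365 reads: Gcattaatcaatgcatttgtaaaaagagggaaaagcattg
fiery, nt 138, 150 reads: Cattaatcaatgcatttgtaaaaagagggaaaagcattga
fiery, nt 146, 81 reads: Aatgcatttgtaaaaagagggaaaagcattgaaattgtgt
wild type, nt 138, 24 reads: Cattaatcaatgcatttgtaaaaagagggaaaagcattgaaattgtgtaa
wild type, nt 146, 20 reads: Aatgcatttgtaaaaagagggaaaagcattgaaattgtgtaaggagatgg

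The leading ends of other precursors were compared in the same way. With a minimum of 30 reads per library, and leaving out the copies of mir405, 30 precursors could be compared and 20 had the same leading end in both. The leading end differed by 1 nt in mir161 and by more than 1 nt in 9. Below that minimum, the wild-type leading end was also 1 nt further on in mir845b (16 fiery and 86 wild-type reads), mir413 (6 and 65) and mir169e (19 and 4), and 1 nt earlier in mir857a (3 and 2). mir161 was also the 1 precursor of the 30 with no wild-type read at the leading end of fiery. With the fiery library thinned at random to the wild-type total, nt 137 held 58.6% of its mir161 reads. Random thinning leaves the expected share unchanged, so this value does not bear on the difference between libraries. The part of unequal amplification was not tested.

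The other mir161 ends were few. Between the base-side cuts, nt 139 to 144, fiery had 32 reads (4.83%) and wild type 5 (9.62%). All 5 of wild type were at nt 142, which held 12 of the fiery reads; fiery also had 10 reads at nt 139 and 7 at nt 141. Both libraries thus shared nt 142 as a minor end about midway between the cuts. Loop-side ends were rare: 8 fiery reads (1.21%) lay within 1 nt of the loop-side cut of miR161.2, 6 of them at nt 126, and none at that of miR161.1. Wild type had no read at either, but 3 reads at nt 127. On the 5′ arm, 1 fiery read started at nt 38, the first base of miR161.2, and no read of either library started at miR161.1. The remaining fiery ends, outside the 7 with at least 5 reads or 2% of the precursor, were 15 ends with 32 reads in all.

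**Figure D2:**
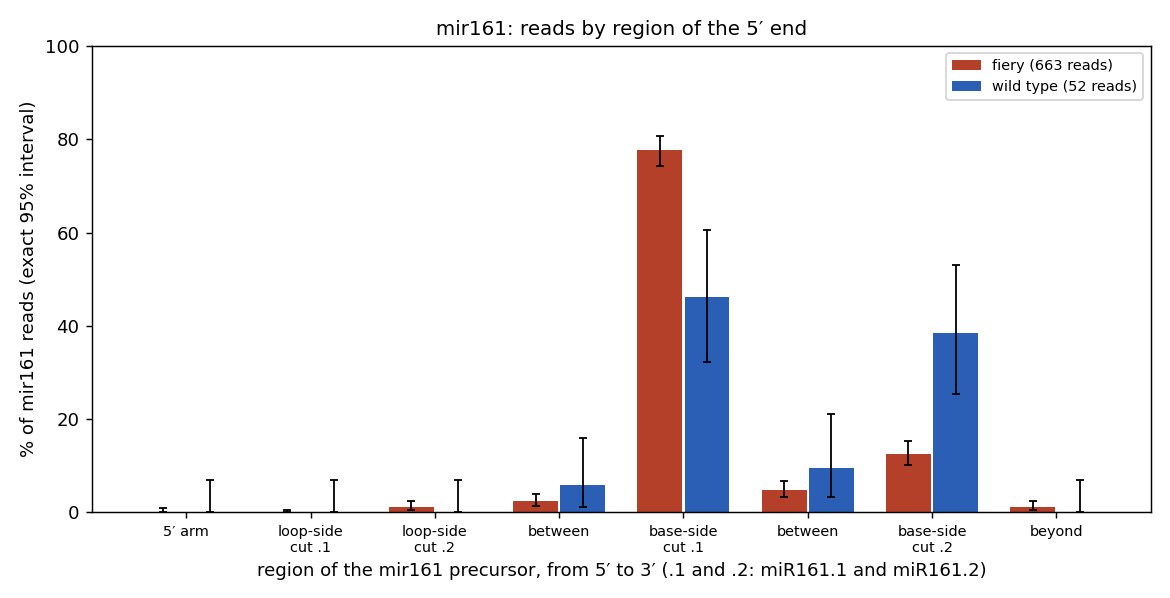
Share of mir161 reads (%, bars from 0, exact 95% intervals) in successive regions of the precursor for fiery (663 reads) and wild type (52 reads). The base-side cut of miR161.1 holds 77.7% in fiery and 46.2% in wild type, and that of miR161.2 holds 12.5% and 38.5%.

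Some ends could not have been listed. The fiery library holds no tag of 36 to 39 nt and the wild-type library none of 46 to 49 nt. If the short tags mark the primer site, ends at nt 157 to 160 of mir161 would be missing from the mutant, and ends at nt 147 to 150 from wild type. The ends at nt 137, 138, 142 and 146 lie outside those ranges, while nt 147, with 2 fiery reads, lies inside the wild-type range.

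Other precursors with mature RNAs on the 5′ arm alone and at least 30 reads in fiery varied widely by the same count. Base-side ends held 90.2% (87.7 to 92.4) of the mir161 reads, against 97.3% in mir167d and 68.6% in mir167b. They held 38.1% in mir400, 24.6% in mir856 and 0 of 42 reads in mir169k. Of those mir169k reads, 37 started at nt -150, upstream of its annotated precursor, so its 0 does not describe cuts in the hairpin. mir161 had 2 places that could count as base-side, where the others had 1. Its single leading end was of middling share: 55.1% was above 2 of these 5 precursors in fiery, and 46.2% was above 2 of 7 in wild type.

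mir158a was concentrated at 1 end in fiery and was nearly absent from wild type. In fiery, 347 of its 415 reads, or 83.6% (79.7 to 87.0), started at nt 83, the first base after miR158a-3p (chr3 position 3366348). With 9 reads at nt 84, the base-side cut of miR158a-3p held 356 reads, or 85.8% (82.0 to 89.0). Its loop-side cut, the first base of miR158a-3p at nt 63, held 1 read. Wild type had 4 reads in all: 1 at nt 83, 1 at nt 20 and 2 at nt 104. No shares can be compared at that depth. Even 0 of 4 reads allows a share of up to 75% (3 counts of 4), or 60.2% by the exact interval. The leading tag of fiery is shown with that of the same start in wild type.
fiery, nt 83, 347 reads: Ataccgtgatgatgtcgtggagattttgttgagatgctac
wild type, nt 83, 1 read: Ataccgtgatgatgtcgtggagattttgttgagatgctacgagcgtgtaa

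Outside the base-side cut, the fiery reads of mir158a were spread over 26 ends with at most 8 reads each. Inside miR158a-3p, 22 reads (5.30%) fell at 6 ends, led by nt 73 with 7 and nt 80 with 5. On the 5′ arm, 15 reads (3.61%) lay within 2 nt of the first base of miR158a-5p, 8 at nt 18 and 5 at nt 20. That place faces the base-side cut across the stem, and the 1 wild-type read on this arm was also at nt 20. Within 1 nt of the first base of miR158a-5p there were 7 fiery reads (1.69%). No read lay within 1 nt of the first base after miR158a-5p, nt 41, though 3 fiery reads were at nt 43. Another 6 reads began upstream of the annotated precursor, between nt -33 and nt -20, and so came from RNA that ran past its 5′ end. Past the base-side cut there were 7 reads, 2 of them at nt 104, where wild type also had 2.

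**Figure D3:**
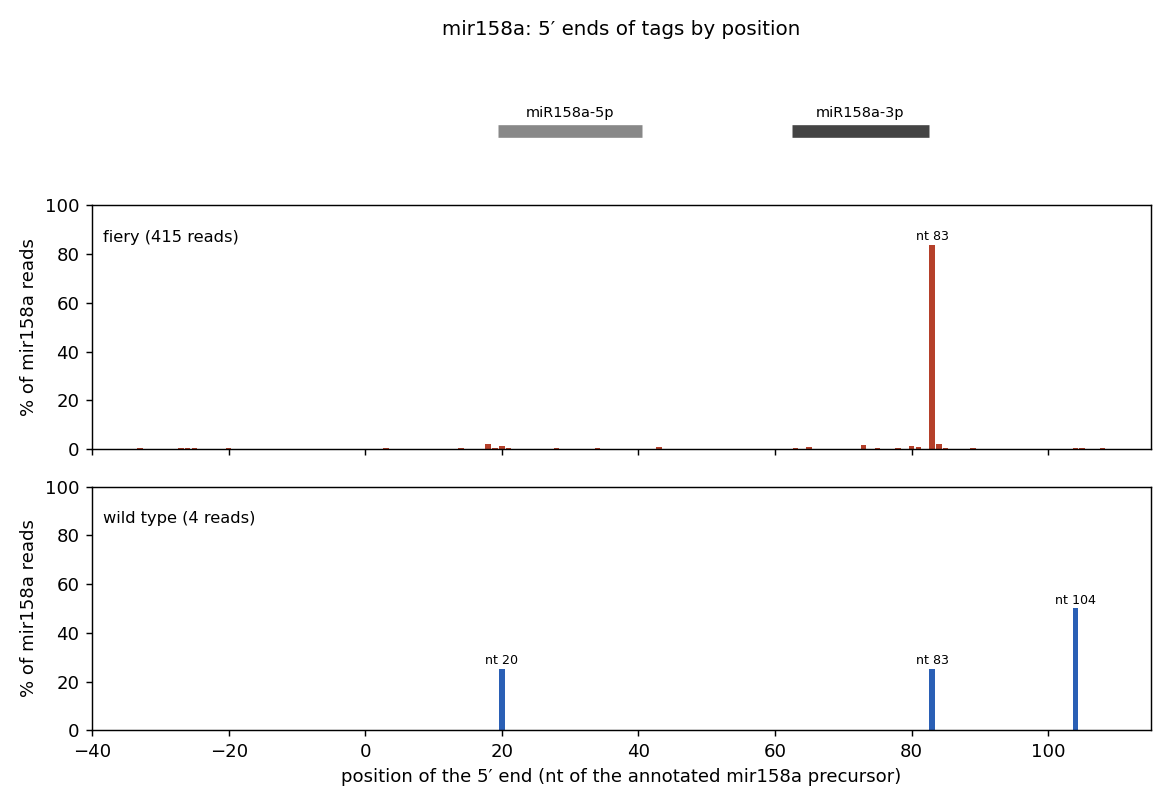
Share of mir158a reads (%, linear axis from 0) by the position of the 5′ end in nt of the precursor, in fiery (415 reads) and wild type (4 reads), with miR158a-5p and miR158a-3p drawn above. In fiery nt 83 holds 83.6%, while each wild-type bar stands for 1 or 2 reads.

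Compared with other precursors in fiery, mir158a was in the upper part of the range for both measures of sharpness. Its base-side share of 85.8% stood above 37 and below 13 of 50 others with 1 mature RNA on the 3′ arm and at least 30 reads, whose median was 69.7%. Its leading end of 83.6% stood above 38 of 48 others, with a median of 67.4%. Fiery held 152 antisense reads, which have no placed end. Precursors with antisense reads alone drop out of the leading-end comparison. In the base-side comparison they would count as 0%, among those below mir158a, and lower the median. For mir158a, absent tag lengths would hide nt 96 to 99 in the mutant, and nt 86 to 89 in wild type, which leaves nt 83 and nt 84 countable in both.

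Both precursors took a larger share of the fiery library than of the wild-type library. mir158a had 1.25% (1.13 to 1.38) of fiery and 0.0330% of wild type, a ratio of 37.9 (14.7 to 139.8). mir161 had 2.00% (1.85 to 2.15) and 0.429% (0.320 to 0.562), a ratio of 4.66 (3.51 to 6.30). Of 47 precursors with at least 100 reads over both libraries, mir158a ranked 5 and mir161 ranked 15, and 40.4% had a share at least 2-fold higher in fiery. Of the 47, 18 were at least 2-fold lower, and the median ratio was 1.12. Over the 31 precursors that reached 30 reads in both, the median was 0.520. Relative to it, the ratios came to 72.8 for mir158a and 8.95 for mir161. mir158a, with 4 wild-type reads, is not among those 31. Their minimum leaves out precursors with few wild-type reads, so 72.8 is not a comparison with its like.

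**Figure D4:**
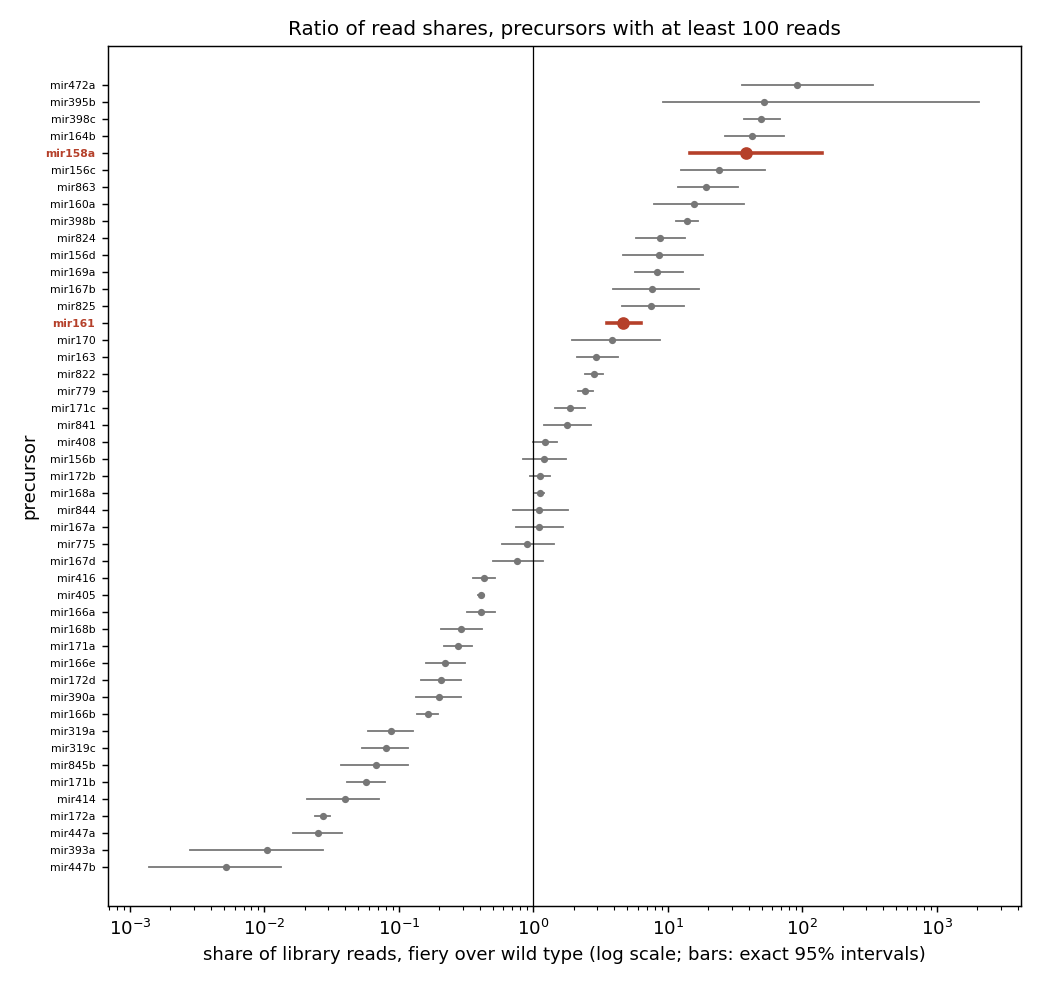
Ratio of read shares, fiery over wild type (log axis), with exact 95% intervals for the 47 precursors with at least 100 reads over both libraries, in order, with the line at 1 marking equal shares. mir158a at 37.9 and mir161 at 4.66 are drawn in red.

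The size of the mir161 ratio depended on the totals and on how tags were counted. Among tags longer than 35 nt, which made up unlike shares of the libraries, it was 2.06. All wild-type mir161 reads and nearly all fiery ones were on such tags. The lower value thus came almost wholly from the library totals. With each distinct tag counted once, which counts their ends rather than reads, the ratio was 2.12 for mir161 and 3.60 for mir158a. The wild-type count of mir158a was 4 reads, so the upper bound of its interval is loose. The precursors nearest to mir158a in ratio were mir164b (42.4), mir398c (49.4) and mir395b (51.9, with 1 wild-type read). Nearest to mir161 were mir170 (3.86), mir163 (2.95) and mir825 (7.49).

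Other precursors linked to PPR genes did not share one direction. The list held 5 precursors: mir158a, mir158b, mir161, mir400, whose product is known to target PPR mRNAs, and mir173, whose product starts the trans-acting small RNAs of TAS1 and TAS2. Apart from mir158a and mir161, none reached 100 reads, and so these ratios are given as values alone. mir158b had 3 fiery reads, all at nt 76, the first base after miR158b, and 0 wild-type reads. mir400 had 42 fiery reads and 2 wild-type reads, a ratio of 7.67 (2.00 to 65.4). mir173 had 6 fiery reads and 22 wild-type reads, a ratio of 0.0997 (0.0331 to 0.253).

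Of these precursors, mir400 had the most reads at a loop-side cut. In fiery, mir400, which like mir161 has its mature RNA on the 5′ arm, had 42.9% of its reads at the loop-side cut and 38.1% at the base-side cut. The corresponding loop-side share of mir161 was 1.21%, with an interval of 0.522 to 2.36 against 27.7 to 59.0 for mir400. In mir173, whose miR173-3p ends at nt 95, 5 of 6 fiery reads were at nt 97, within 1 nt of the base-side cut, as were 5 of 22 wild-type reads. The leading wild-type end of mir173, with 9 reads, was at nt 120, past the annotated precursor of 102 nt.

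How far the mature RNAs match PPR genes was checked in the annotated mRNAs, counting each unpaired base, G:U pairs included, as a mismatch. Of 31464 genes with an annotated mRNA, 492 or 1.56% are annotated as PPR genes. For miR161 the sequence matches went with the label of PPR-gene regulator, though regulation itself was not measured. With at most 3 mismatches, miR161.1 matched 11 genes and miR161.2 matched 20, and all of them were PPR genes. The 11 genes of miR161.1 were all among the 20 of miR161.2. In each of these 11 genes the sites lay 9 nt apart, the same distance as the mature RNAs in the precursor, so the matches share bases and are not independent. All 32 sites were in coding sequence, and 15 of the 20 genes were on chromosome 1.

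For miR158a-3p the matches went with the label in part. It matched 8 genes with at most 3 mismatches, of which 3 were PPR genes: AT1G12615 and AT1G64100 with 2 mismatches and AT3G03580 with 3. miR158a-5p matched 4 genes and none of them was a PPR gene. With at most 4 mismatches, 7 of 60 genes of miR158a-3p were PPR genes, against 27 of 34 for miR161.1 and 27 of 39 for miR161.2. A match is a description of sequence, and cleavage of these mRNAs was not measured here. A few sites are shown on the mRNA strand with the mismatched bases in capitals. RPF2, known as a factor in the 5′ processing of mitochondrial mRNAs, has a site for each of the overlapping RNAs.
miR161.2 in AT5G41170 (chr5:16479684-16479704, minus, 1 mismatch): taAtcactttcaatgcattga
miR161.1 in AT5G41170 (chr5:16479693-16479713, minus, 3 mismatches): aAccTgatgtaAtcactttca
miR161.1 in RPF2 (chr1:23205678-23205698, minus, 2 mismatches): acccTgatgtaTtcactttca
miR161.2 in RPF2 (chr1:23205669-23205689, minus, 3 mismatches): taTtcactttcaGCgcattga
miR158a-3p in AT1G12615 (chr1:4294438-4294457, minus, 2 mismatches): tgctttgtctacattAgCga
miR158a-3p in AT1G64100 (chr1:23792061-23792080, plus, 2 mismatches): tTctttgtctacatttggCa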

How the data were processed

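The deposited values are read counts per sequence tag: whole numbers, listed under the precursor name the authors gave the tag, with no sign of scaling. The submitters' processing notes name Bowtie and TAIR10, with no version or settings. Tags were matched exactly to TAIR10.1, both strands, with a 26-nt seed. Each mir158a and mir161 tag matched 1 place, on the sense strand. Precursor, mature and target sequences were read from the RefSeq TAIR10.1 genome by its annotation.

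Folds and opposite strands came from RNAfold 2.7.2. Shares carry Clopper-Pearson intervals and ratios exact conditional binomial intervals (scipy 1.17.1), at 95%. A count of 0 was read as allowing up to 3 counts of the total. That rule differs from the exact interval, whose upper limit is given beside it. Ends within 1 nt of a cut were counted there. On simulated counts of independent reads, the ratio interval held the true ratio in 94.8% to 96.4% of draws. Such counts hold no PCR copies, so this does not show how the interval performs on these reads. PPR genes were those whose product or note in the annotation names pentatricopeptide repeats.

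Ends named had at least 5 reads or 2% of the precursor; other ends given were chosen after their values were seen, as was the comparison of both base-side cuts. The members, lists and tests were chosen with earlier results of these data known. The 3 names of mir405 copies were treated as 1 precursor.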

Additional observations from a re-analysis of the deposited data

How the results depend on the processing

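Of 66 values under other settings, 43 stayed within the counting interval (or, for counts of genes, close to the value above), 23 moved and 0 reversed; the comparison of both base-side cuts was chosen after seeing the data. No paired analysis was possible because each genotype had 1 library. With each distinct tag counted once, the ratio was 3.60 for mir158a and 2.12 for mir161. The main-end share in fiery was then 3.57% for mir158a and 4.55% for mir161 (25% in wild type). The base-side share of mir158a in fiery was 7.14%, and mir161 tags at the cuts were 31.8% in fiery and 50.0% in wild type. The share of the miR161.2 cut among both base-side cuts was 50.0% in fiery and in wild type. Each end of these precursors was 1 distinct tag, so this setting drops abundance and counts occupied ends. Its main-end shares are fixed by the number of ends, 28 for mir158a and 22 for mir161 in fiery. Such shares cannot show whether the read shares are robust, although they are among the values that moved. With only tags over 35 nt, the main-end share of mir158a in wild type was 0%. The mir161 ratio was then 2.06, a change that came almost wholly from the library totals. Relative to the median ratio, mir161 stood at 8.95. Within 1 nt of its main end, mir161 had 77.7% in fiery. At the exact nucleotide, mir161 reads at the cuts were 67.7% in fiery and 38.5% in wild type, and the miR161.2 cut took 18.2% of both base-side cuts in fiery and 100% in wild type, where no read was at nt 137; within 2 nt, 93.8% of fiery reads were at the cuts. With at least 100 reads, 0% of other precursors had a lower main-end share than mir161 in fiery (1 compared). PPR genes matched numbered 2 for miR161.1 and 11 for miR161.2 at 2 mismatches, and 27 for miR161.1 and 7 for miR158a-3p at 4. The depth of wild type, 4 reads of mir158a and 52 of mir161, limits the comparisons between libraries. With fiery thinned at random to the wild-type total, the mir161 ratio was 4.79. Random thinning leaves the expected ratio unchanged, so this value does not bear on that limit.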
